A study of Homo sapiens with 4 samples.

Results

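The vacuolar H+-ATPase (V-ATPase) and the proteins that place and switch mTORC1 on the lysosome were described here in MV4-11, an established human line of acute myeloid leukemia, after knockdown of the transcription factor IRF1. The members were 40 genes listed by symbol, with 17 genes for V-ATPase subunits and accessory proteins, and 23 genes for Ragulator, the Rag GTPases, the FLCN complex, SLC38A9, GATOR1, mTORC1, RHEB and the TSC complex. Of the 40 genes, 39 were among the 23622 genes of the deposited table, and RRAGB was not analysed here. The 2 control libraries (sh-NC) came from cells that the sample labels give as untreated, and the 2 knockdown libraries (sh-IRF1) from cells with IRF1 knocked down, and the labels give the genotype of both groups as WT. The name sh-NC is the study's name for a control hairpin, and a short hairpin RNA directs the breakdown of transcripts that match it. All 4 libraries were made from total RNA of a single cell line, and the labels do not say whether the replicates were separate cultures, so that the spread between them may be technical. Nor do they say whether both sh-IRF1 libraries carried the same hairpin, so that their spread may also hold a difference between hairpins.

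The V-ATPase is a rotary proton pump. Its cytosolic V1 domain splits ATP and turns a central rotor, and its membrane V0 domain carries protons into the lumen, which acidifies lysosomes and endosomes. When amino acids are plentiful, the pump and Ragulator, a scaffold on the lysosomal surface, work with the Rag GTPases to bring mTORC1, a kinase complex that drives growth, to the membrane where RHEB activates it. GATOR1 and the TSC complex oppose this by acting on the Rag GTPases and on RHEB, and in myeloid cells lysosomes also serve the digestion of what the cells take up. TFEB and its relatives are transcription factors that mTORC1 keeps out of the nucleus and that bind E-box sequences of the so-called CLEAR type at many lysosomal genes.

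Promoter sequence was read for the members because many V-ATPase genes are known TFEB targets. RefSeq windows on GRCh38.p14, from 250 bases before to 50 bases after a transcription start, were available for 31 of the 40 genes. No window was at hand for ATP6V1A, ATP6V1B2, ATP6V1C1, ATP6V1H, ATP6V0E1, RRAGA, RRAGD, MLST8 and AKT1S1. The windows below are shown because they hold the CLEAR type E-box TCACGTGA or more than 1 core E-box CACGTG, both of which read the same on either strand. They are written 5′ to 3′ along the gene, with the E-box in capitals. The window of RRAGB, which was not analysed here, also holds TCACGTGA and is not shown. ATP6V0D1 lies on the minus strand at chr16:67481108-67481407, ATP6V1G1 on the plus strand at chr9:114587519-114587818, TSC2 on the plus strand at chr16:2047735-2048034, ATP6V0B on the plus strand at chr1:43974710-43975009 and FNIP1 on the minus strand at chr5:131796968-131797267.
ATP6V0D1: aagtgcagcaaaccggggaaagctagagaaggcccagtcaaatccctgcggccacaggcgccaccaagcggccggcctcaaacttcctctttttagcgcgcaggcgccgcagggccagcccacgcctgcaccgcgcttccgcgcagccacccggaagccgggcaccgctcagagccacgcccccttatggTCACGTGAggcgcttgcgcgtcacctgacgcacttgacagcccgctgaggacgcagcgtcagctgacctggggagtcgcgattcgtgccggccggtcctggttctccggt
ATP6V1G1: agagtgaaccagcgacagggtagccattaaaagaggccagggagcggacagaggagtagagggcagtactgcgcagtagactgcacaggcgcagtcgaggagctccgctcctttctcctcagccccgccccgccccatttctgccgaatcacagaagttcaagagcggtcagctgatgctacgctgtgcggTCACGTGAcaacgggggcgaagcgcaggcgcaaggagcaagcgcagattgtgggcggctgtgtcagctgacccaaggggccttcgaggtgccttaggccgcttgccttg
TSC2: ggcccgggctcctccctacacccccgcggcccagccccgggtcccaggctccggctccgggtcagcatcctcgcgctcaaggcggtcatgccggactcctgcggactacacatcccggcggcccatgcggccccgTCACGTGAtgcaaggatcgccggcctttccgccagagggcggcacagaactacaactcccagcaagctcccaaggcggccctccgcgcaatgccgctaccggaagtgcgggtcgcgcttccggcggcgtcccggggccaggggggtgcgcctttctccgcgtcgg
ATP6V0B: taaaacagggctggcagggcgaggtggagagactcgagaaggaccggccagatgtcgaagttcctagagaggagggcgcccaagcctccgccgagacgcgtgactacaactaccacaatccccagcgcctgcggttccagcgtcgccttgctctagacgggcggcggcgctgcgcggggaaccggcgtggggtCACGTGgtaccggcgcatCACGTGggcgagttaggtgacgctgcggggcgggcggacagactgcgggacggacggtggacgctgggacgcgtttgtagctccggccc
FNIP1: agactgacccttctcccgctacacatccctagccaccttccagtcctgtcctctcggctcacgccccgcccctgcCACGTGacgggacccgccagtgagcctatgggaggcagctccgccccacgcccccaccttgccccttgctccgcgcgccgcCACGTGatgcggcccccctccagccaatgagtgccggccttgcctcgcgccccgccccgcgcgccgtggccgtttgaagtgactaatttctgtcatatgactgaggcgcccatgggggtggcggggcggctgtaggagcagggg

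The CLEAR type E-box lay at -60 to -53 from the start of ATP6V0D1, which codes for the d subunit of the membrane domain, and at -59 to -52 from the start of ATP6V1G1, a subunit of the peripheral stalk. The normalized count of ATP6V0D1 was higher after the knockdown, while that of ATP6V1G1 did not pass the test, as described below. In TSC2 it lay at -115 to -108. A TCACGTGA was found in 2 of the 12 V-ATPase genes with a window and in 2 of the 19 other genes with a window (TSC2 and RRAGB). Counted by window, it stood in 2 of 16 V-ATPase windows and 2 of 27 other windows, against 0.98% of all 35116 promoters. Of the 29 tested members with a window 3 held it, against 2.35% of the 10133 tested genes with a window. The core CACGTG, which every TCACGTGA contains, was found in 4 of the 12 V-ATPase genes (ATP6V0B, ATP6V0D1, ATP6V0E2 and ATP6V1G1) and in 7 of the 19 others (FNIP1, LAMTOR1, LAMTOR4, NPRL3, RRAGB, RRAGC and TSC2). Counted by window, CACGTG stood in 5 of 16 V-ATPase windows and 7 of 27 other windows, against 7.26% of all promoters. Of the 29 tested members with a window 9 held it, against 12.7% of tested genes with a window. GAAANNGAAA, the core repeat that IRF proteins recognize, was searched on both strands and found in 0 of the 31 genes. It stood in 3.57% of all promoters and in 4.01% of tested genes with a window. At shares this low, 0 of 31 genes cannot show that the members lack the motif more than other genes do. Over all tested genes with a window, 73 of the 238 genes with TCACGTGA rose (30.7%), and 2151 of the 9895 without it (21.7%). For CACGTG the shares that rose were 23.5% with and 21.7% without the motif, and for GAAANNGAAA 22.9% with and 21.9% without it. These matches describe letters in short windows, and no binding data were used.

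The authors' table gives, for each gene, its reads divided by 1 size factor per library, called normalized counts here. Reads recovered from them summed to between 17635908 and 18695337 per library. Fold changes are sh-IRF1 against sh-NC on the scale log2(normalized count + 1), which understates changes of low genes. They were tested with limma over 14120 genes, with p-values adjusted over all of them by the Benjamini-Hochberg method. An exact two-sided permutation test over 2 and 2 libraries cannot go below p = 0.33, so the calls rest on the spread that limma shares between genes. IRF1 itself stood at 785 and 738 normalized counts in sh-NC and at 430 and 432 in sh-IRF1, with a log2 fold change of -0.82 (SE, the standard error, 0.0904, adjusted p = 1.69e-10). All 10 markers of myeloid leukemia cells were in the table, with summed normalized counts of 39063 and 39154 in sh-NC and 35902 and 36064 in sh-IRF1. FLT3 was the largest part of these sums, at 17391 and 17412 in sh-NC and 12745 and 12634 in sh-IRF1. Its fall was larger than that of the sums, so the sums do not show a general loss of these markers. Of the 10 markers 4 rose, 5 fell and 1 did not pass an adjusted p of 0.05 in limma. Over all genes tested, 20.3% rose and 21.9% fell. LYZ and ITGAM rose by 0.85 and 0.64, and FLT3, MPO and CD14 had log2 fold changes of -0.46, -1.42 and -2.81. CD14 was low, with 37 and 41 reads in sh-NC and 11 and 2 in sh-IRF1, and its sh-IRF1 libraries alone would not have passed the filter on low values. Marker lists of other cells were low, with 2 of 5 T cell markers in the table (sums from 0 to 8), 3 of 4 B cell markers (88 and 120 in sh-NC, 254 and 305 in sh-IRF1), 1 of 5 markers of erythroid cells and megakaryocytes (70 and 83 against 41 and 33) and 1 of 4 epithelial markers (146 and 96 against 186 and 167). The part of these shifts in the results that follow was not tested. In these bulk samples fewer cells of a type and less RNA per cell cannot be told apart.

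The question put to these genes was whether the pump and the signaling machinery it works with moved alike after IRF1 knockdown. Of the 16 V-ATPase genes tested, 12 rose, 0 fell and 4 did not pass an adjusted p of 0.05. No V-ATPase gene was lower in limma at an unadjusted p under 0.05 either, and edgeR and DESeq2 also called 0 lower. Of the 22 other genes tested, 15 rose, 3 fell and 4 did not pass. Over all genes tested, 20.3% rose and 21.9% fell. With a log2 fold change beyond 0.5 as well, 5 V-ATPase genes rose, and 4 of the other genes rose and 1 fell, where 8.27% of all genes tested rose and 7.56% fell. In 13 V-ATPase genes and 16 of the others both sh-IRF1 libraries lay above both sh-NC libraries, against 34.2% of all genes tested, and in 0 and 3 they lay below, against 35% of all genes.

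The median log2 fold change was 0.41 in the V-ATPase genes (from -0.02 to 0.94) and 0.31 in the other genes (from -0.52 to 1.81), while the median over all genes tested was -0.0019. Library by library, the V-ATPase median relative to the sh-NC mean was -0.04 and 0.04 in sh-NC and 0.37 and 0.40 in sh-IRF1. For the other genes the same medians were -0.01 and 0.01 in sh-NC and 0.31 and 0.30 in sh-IRF1. Both groups of genes were thus higher in both sh-IRF1 libraries than in either sh-NC library, and the difference between the groups was not tested, since genes are not replicates. All 3 genes that fell (SLC38A9, NPRL2 and MLST8) belonged to the amino acid sensing and mTORC1 side.

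**Figure D1:**
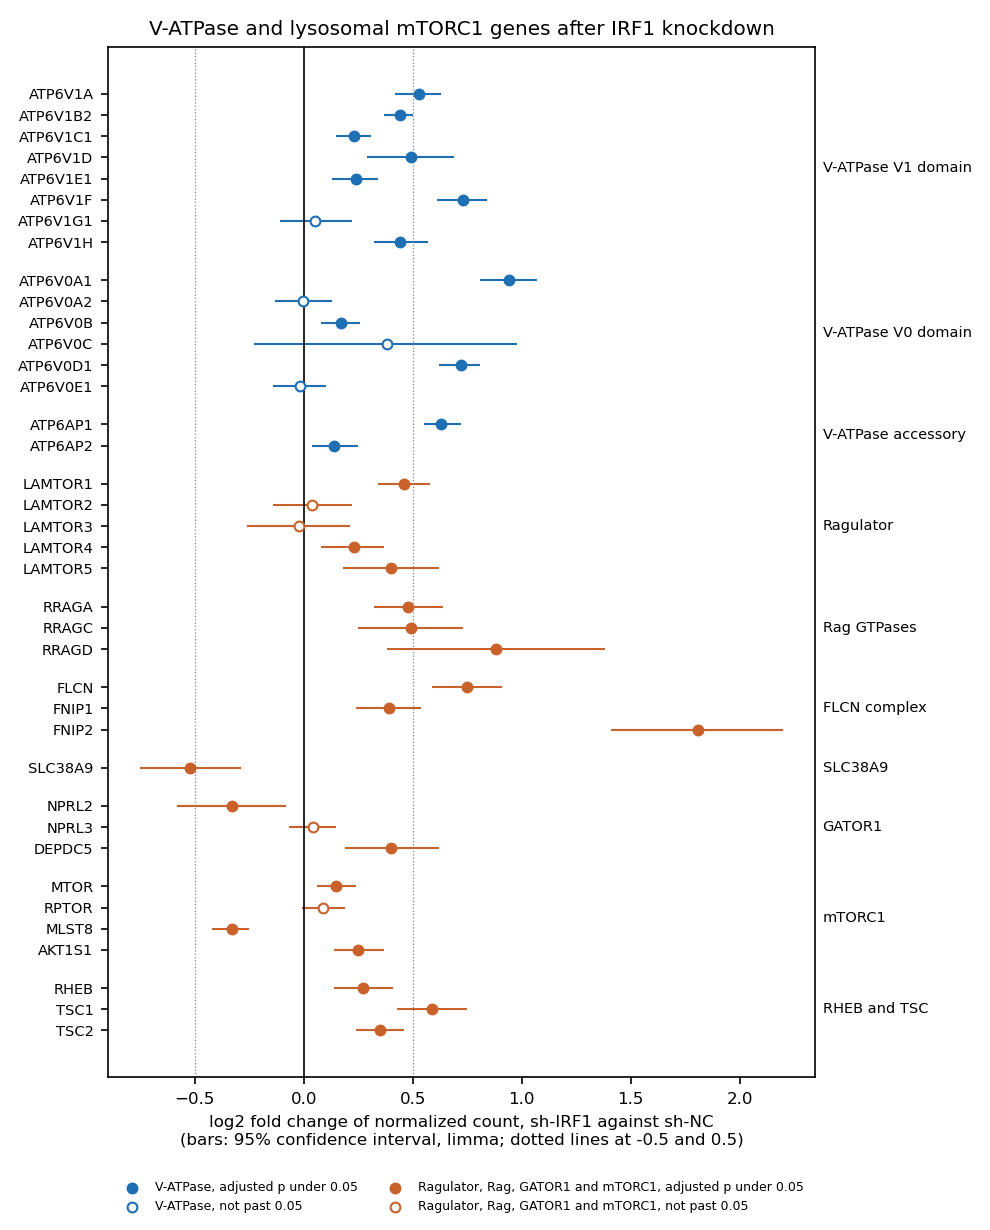
Log2 fold change of normalized count, sh-IRF1 against sh-NC, for the 38 genes tested, with 95% confidence intervals from limma; filled points passed an adjusted p of 0.05 and open points did not. The V-ATPase genes (blue) lie between -0.02 and 0.94, and the other genes (orange) between -0.52 for SLC38A9 and 1.81 for FNIP2.

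**Figure D2:**
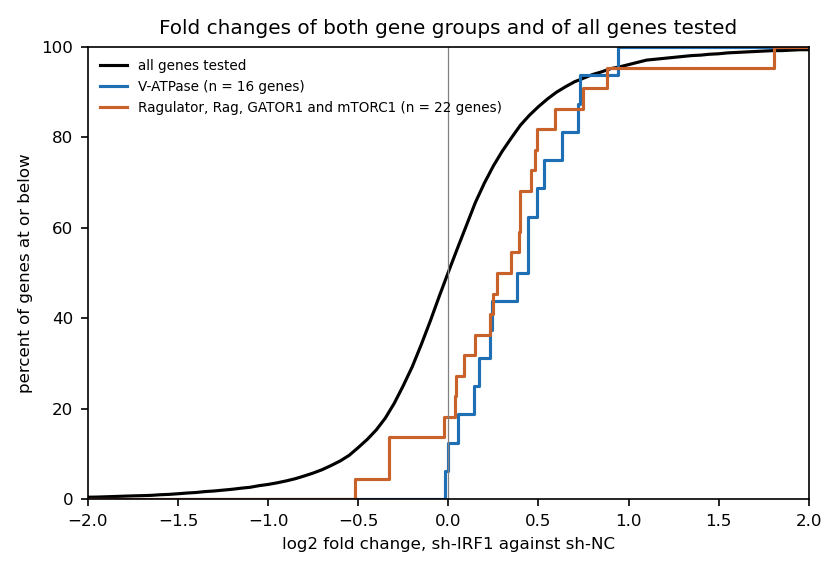
Percent of genes at or below each log2 fold change, for the 16 V-ATPase genes, the 22 other genes and all 14120 genes tested. Both colored curves lie to the right of the curve of all genes over most of their range, with medians of 0.41 and 0.31.

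Among the V1 genes, 7 of 8 rose, with a median log2 fold change of 0.44. ATP6V1A and ATP6V1B2 code for the subunits that form the ring in which ATP is split. ATP6V1A stood at 1577 and 1697 normalized counts in sh-NC and at 2308 and 2407 in sh-IRF1, with a log2 fold change of 0.53 (SE 0.0527, adjusted p = 1.08e-11). ATP6V1B2 stood at 6154 and 6348 in sh-NC and at 8568 and 8363 in sh-IRF1, with a log2 fold change of 0.44 (adjusted p = 1.78e-15). In both genes the sh-IRF1 libraries lay well above the controls and the groups did not overlap.

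ATP6V1D and ATP6V1F code for the central rotor that the ring turns. ATP6V1F (chr7:128862856-128865847, plus strand, GENCODE 44 on GRCh38, as are all gene positions here) had the largest change of the V1 genes, from 1230 and 1160 normalized counts in sh-NC to 1997 and 1962 in sh-IRF1. Its log2 fold change was 0.73 (SE 0.0575, adjusted p = 7.43e-15). On the opposite strand KCP, with 28 to 46 reads per library, shares 20.6% of the exonic bases of ATP6V1F, and the sources used here do not say whether the counting used strand. ATP6V1D rose from 396 and 409 to 558 and 571 normalized counts (log2 fold change 0.49, adjusted p = 6.07e-05). ATP6V1H, a subunit that regulates the ATPase, stood at 1235 and 1340 in sh-NC and at 1834 and 1670 in sh-IRF1, with a log2 fold change of 0.44 (adjusted p = 3.35e-08).

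The genes of the peripheral stalk, which holds the ring still, showed smaller values. ATP6V1C1 stood at 3627 and 3844 normalized counts in sh-NC and at 4406 and 4369 in sh-IRF1 (log2 fold change 0.23, adjusted p = 4.31e-06). ATP6V1E1 stood at 1829 and 1758 in sh-NC and at 2184 and 2050 in sh-IRF1 (log2 fold change 0.24, adjusted p = 0.0002). The reads of 2 pseudogenes named for ATP6V1E1 came to 0.203% of its own. ATP6V1G1 (chr9:114587706-114598915, plus strand) had 660 and 664 normalized counts in sh-NC and 693 and 679 in sh-IRF1. Its log2 fold change was 0.053, with a 95% interval from -0.11 to 0.22 (adjusted p = 0.648), so that a change as large as that of ATP6V1A lay outside the interval. The stalk genes ran from 0.053 to 0.24 and the ring, rotor and H genes from 0.44 to 0.73, an order that was seen after the values were known and was not tested.

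Among the V0 genes, 3 of the 6 tested rose, with a median log2 fold change of 0.27. This median rested on single libraries, with 0.09 without sh-IRF1 replicate 2, 0.45 without sh-IRF1 replicate 1, 0.15 without sh-NC replicate 1 and 0.39 without sh-NC replicate 2. The a subunit forms the path of the protons and steers the pump to a membrane, and it is made from several genes. ATP6V0A1 (chr17:42458844-42522582, plus strand) stood at 823 and 863 normalized counts in sh-NC and at 1597 and 1628 in sh-IRF1. Its mean rose from 843 ± 28.3 to 1612 ± 22.6 (SD, n = 2 each), which is 191% of the sh-NC level, with a log2 fold change of 0.94 (SE 0.0647, adjusted p = 8.73e-17 from limma). It was the largest log2 fold change among the 16 V-ATPase genes tested. ATP6V0A2 (chr12:123712353-123761755, plus strand), which codes for another form of the a subunit, stood at 1175 and 1286 in sh-NC and at 1255 and 1199 in sh-IRF1, with overlap between the groups. Its log2 fold change was -0.0023 (95% interval -0.13 to 0.13, adjusted p = 0.982).

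The log2 ratio of ATP6V0A1 to ATP6V0A2 within a library was -0.51 and -0.58 in sh-NC and 0.35 and 0.44 in sh-IRF1. It differed by 0.94 between the groups, which did not overlap (exact permutation p = 0.33, the smallest that 2 against 2 can give). TCIRG1, which codes for the a3 form used by lysosomes of macrophages and osteoclasts, had a log2 fold change of 0.12 (2805 and 2691 against 3029 and 2954 normalized counts, adjusted p = 0.0231). With reads divided by the length of all exons, TCIRG1 took 82.2% and 80.5% of the level summed over these 3 genes in sh-NC and 77% and 76.7% in sh-IRF1. ATP6V0A1 took 8.57% and 9.18% in sh-NC and 14.4% and 15% in sh-IRF1, and ATP6V0A2 took 9.2% and 10.3% and then 8.53% and 8.31%. With the canonical transcript as the length, a choice made after seeing the data, the shares of ATP6V0A1 were 14% and 14.8% in sh-NC and 22.6% and 23.5% in sh-IRF1. Under either length TCIRG1 held most of the summed level in every library.

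ATP6V0D1 (chr16:67438014-67481181, minus strand), whose promoter carries the E-box shown above, couples the rotor to the membrane ring. It stood at 1863 and 1976 normalized counts in sh-NC and at 3208 and 3096 in sh-IRF1, with a log2 fold change of 0.72 (SE 0.0478, adjusted p = 2.76e-17). ATP6V0B, a proteolipid of the ring with a pair of E-boxes in its window, stood at 3072 and 2981 in sh-NC and at 3291 and 3509 in sh-IRF1 (log2 fold change 0.17, adjusted p = 0.00151). Without sh-IRF1 replicate 2 this call was lost (0.12, adjusted p = 0.102). ATP6V0E1, a small membrane subunit, had a log2 fold change of -0.019 (95% interval -0.14 to 0.10, adjusted p = 0.828), with 1466 and 1634 normalized counts in sh-NC and 1511 and 1545 in sh-IRF1.

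A pair of V0 genes could be read only poorly. ATP6V0C, which codes for the main proteolipid of the proton ring, had 37 and 54 reads in the sh-NC libraries and 48 and 80 in the sh-IRF1 libraries. Its groups overlapped, and its log2 fold change of 0.38 had a 95% interval from -0.23 to 0.98 (adjusted p = 0.329). It was 0.056 without sh-IRF1 replicate 2, 0.70 without sh-IRF1 replicate 1, 0.11 without sh-NC replicate 1 and 0.64 without sh-NC replicate 2. Other genes share 76.3% of its exonic bases, and 60.9% lie in a same-strand gene with 0 to 3 reads, and the effect of that sharing on its low count was not tested. ATP6V0E2, the second form of the e subunit, had 1 read in either sh-NC library, 6 and 21 in the sh-IRF1 libraries and was too low to be tested with the other genes. Summed over the groups, 27 reads against 2 gave a ratio of 13.1 after scaling for depth, with a 95% interval of 3.29 to 114 that covers counting error only. The log2 ratio of ATP6V0E1 to ATP6V0E2 was 9.50 and 9.66 in sh-NC and 7.76 and 6.22 in sh-IRF1, and these values depend on the pseudocount.

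The accessory genes code for proteins that help assemble the pump. ATP6AP1 (chrX:154428633-154436516, plus strand) stood at 2665 and 2849 normalized counts in sh-NC and at 4294 and 4264 in sh-IRF1, with a log2 fold change of 0.63 (SE 0.0425, adjusted p = 2.96e-17). ATP6AP2, also known as the prorenin receptor, stood at 1811 and 1934 in sh-NC and at 2083 and 2052 in sh-IRF1, with a log2 fold change of 0.14 (adjusted p = 0.0226). The call of ATP6AP2 was lost with DESeq2 (adjusted p = 0.0597) and without sh-NC replicate 1 (0.096), sh-IRF1 replicate 1 (0.13) or sh-IRF1 replicate 2 (0.15).

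Levels of the subunit genes, as RPKM computed from the recovered reads and the length of all exons, differed widely in sh-NC. ATP6V1F had the highest level, 86.6, followed by ATP6V0E1 at 53.2 and ATP6V0B at 51.6. The lowest levels were those of ATP6V0A2 at 3.95, ATP6V0A1 at 3.6, ATP6V0C at 1.82 and ATP6V0E2 at 0.0084. The level of ATP6V0C is uncertain, since other genes share 76.3% of its exonic bases. With canonical transcript lengths, also chosen after seeing the data, ATP6V0B came first at 169 and ATP6V1B2 second at 121, so that the order depends on the length used.

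**Figure D3:**
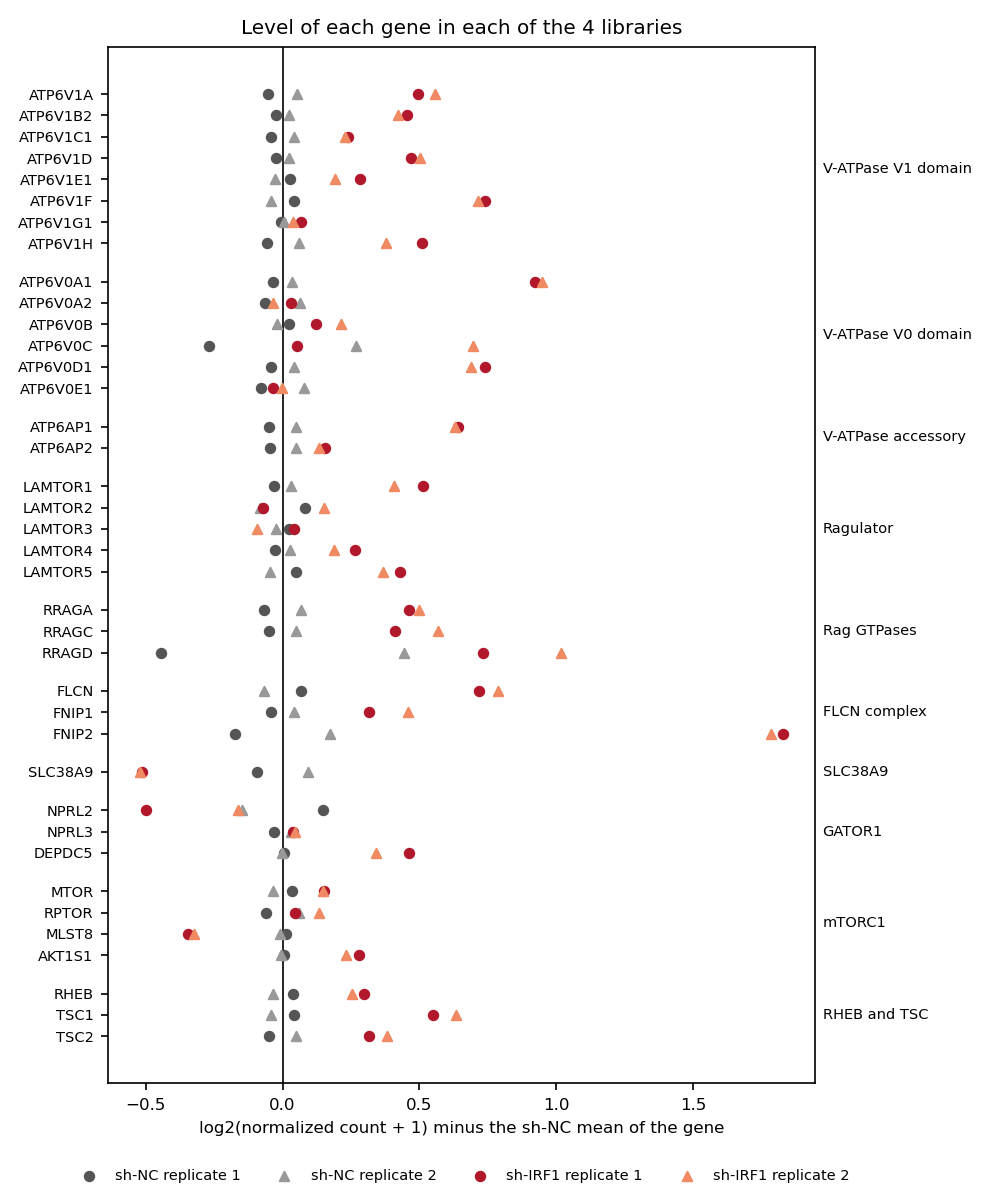
Each library's log2(normalized count + 1) minus the sh-NC mean of the gene, for the 38 genes tested, with sh-NC in grey and sh-IRF1 in red and orange. The sh-IRF1 libraries of ATP6V0A1, ATP6V0D1, ATP6V1F and ATP6AP1 lie close together and far to the right of the controls, while the sh-NC libraries of RRAGD and ATP6V0C lie far apart.

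Ragulator, made of LAMTOR1 to LAMTOR5, anchors the Rag GTPases to the lysosome, and 3 of its 5 genes rose. LAMTOR1, the subunit with the lipid anchor, stood at 1194 and 1249 normalized counts in sh-NC and at 1742 and 1621 in sh-IRF1, with a log2 fold change of 0.46 (SE 0.0599, adjusted p = 1.19e-08). LAMTOR5 stood at 342 and 320 in sh-NC and at 446 and 427 in sh-IRF1 (log2 fold change 0.40, adjusted p = 0.00279), and shares 17.5% of its exonic bases with an antisense gene of 17 to 37 reads. LAMTOR4 stood at 834 and 866 in sh-NC and at 1021 and 967 in sh-IRF1 (log2 fold change 0.23, adjusted p = 0.0098). This call was lost without sh-NC replicate 1 (0.20, adjusted p = 0.0557) or sh-IRF1 replicate 1 (0.19, adjusted p = 0.124). TRAPPC14 on the opposite strand, whose reads were 416 and 458 in sh-NC and 593 and 584 in sh-IRF1, shares 18.4% of the exonic bases of LAMTOR4.

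LAMTOR2 and LAMTOR3, which form a dimer within Ragulator, did not pass the test. LAMTOR2 stood at 694 and 618 normalized counts in sh-NC and at 623 and 727 in sh-IRF1, with a log2 fold change of 0.038 (95% interval -0.14 to 0.22). LAMTOR3 stood at 350 and 339 in sh-NC and at 355 and 323 in sh-IRF1, with a log2 fold change of -0.023 (95% interval -0.26 to 0.21). In both genes the groups overlapped.

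All 3 Rag GTPase genes in the table rose. RagA or RagB pairs with RagC or RagD, and the pair binds mTORC1 according to the nucleotides it carries. RRAGA stood at 592 and 651 normalized counts in sh-NC and at 855 and 877 in sh-IRF1 (log2 fold change 0.48, adjusted p = 3e-06). RRAGC stood at 279 and 299 in sh-NC and at 384 and 429 in sh-IRF1 (log2 fold change 0.49, adjusted p = 0.000575), and another gene of the same strand shares 23.1% of its exonic bases. RRAGD (chr6:89364616-89412273, minus strand), a known TFEB target, was low and less even, with 45.1 and 84.2 in sh-NC and 103 and 126 in sh-IRF1. Its log2 fold change was 0.88 (SE 0.248, adjusted p = 0.00326). The call was lost without sh-NC replicate 1 (0.44, adjusted p = 0.155) or sh-IRF1 replicate 2 (0.74, adjusted p = 0.123). The log2 ratio of RRAGC to RRAGD was 2.60 and 1.82 in sh-NC and 1.88 and 1.75 in sh-IRF1, and the groups overlapped.

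FLCN and its partners FNIP1 and FNIP2 form the complex that switches RagC and RagD to the form that binds substrates of mTORC1 such as TFEB, and all 3 genes rose. FNIP2 (chr4:158769026-158908050, plus strand) stood at 56.4 and 71.9 normalized counts in sh-NC and at 229 and 222 in sh-IRF1. Its mean rose from 64.2 ± 10.9 to 225 ± 4.75 (SD, n = 2 each), which is 351% of the sh-NC level, with a log2 fold change of 1.81 (SE 0.195, adjusted p = 9.47e-11 from limma). It was the largest change among the 38 genes tested, at a low level. FLCN (chr17:17212212-17237188, minus strand) stood at 636 and 578 in sh-NC and at 999 and 1046 in sh-IRF1, with a log2 fold change of 0.75 (SE 0.0786, adjusted p = 3.99e-11). A same-strand gene of 5 to 8 reads shares 11.9% of the exonic bases of FLCN. FNIP1, with a pair of E-boxes in its window, stood at 757 and 801 in sh-NC and at 970 and 1070 in sh-IRF1 (log2 fold change 0.39, adjusted p = 2.92e-05). The log2 ratio of FNIP1 to FNIP2 was 3.72 and 3.46 in sh-NC and 2.08 and 2.26 in sh-IRF1, a difference of -1.42 without overlap (exact permutation p = 0.33).

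**Figure D4:**
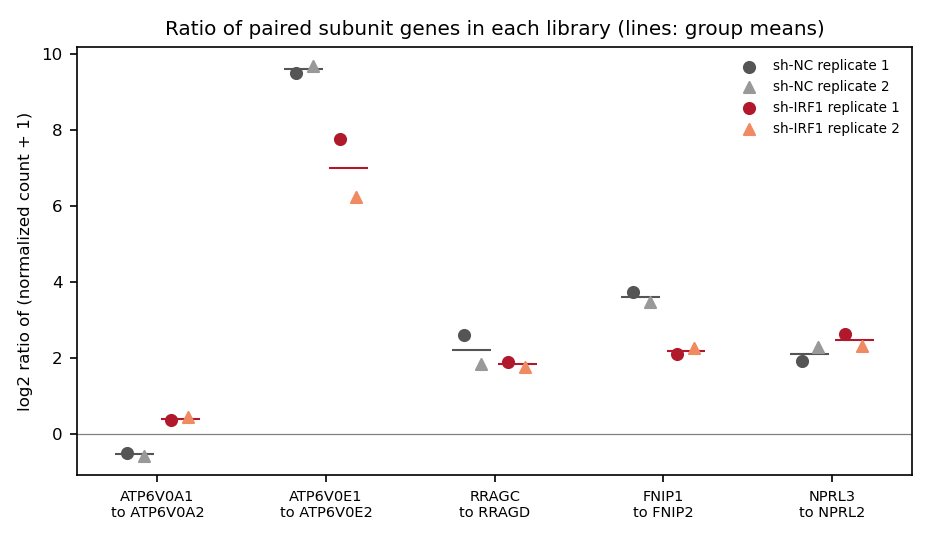
Log2 ratio of (normalized count + 1) between genes that code for alternative or partner subunits, in each of the 4 libraries, with lines at the group means. The ratio of ATP6V0A1 to ATP6V0A2 lies below 0 in both sh-NC libraries and above 0 in both sh-IRF1 libraries, and the ratio of FNIP1 to FNIP2 falls from a mean of 3.59 to 2.17.

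SLC38A9 (chr5:55625845-55773194, minus strand), the arginine sensor of the lysosomal membrane that joins the pump and Ragulator, fell. It stood at 405 and 461 normalized counts in sh-NC and at 302 and 301 in sh-IRF1, with a log2 fold change of -0.52 (SE 0.114, adjusted p = 0.000206). When single libraries were left out, this value ran from -0.61 to -0.42.

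Of the 3 genes of GATOR1, the complex that switches RagA and RagB off, 1 rose, 1 fell and 1 did not pass the test. DEPDC5 stood at 358 and 356 normalized counts in sh-NC and at 492 and 453 in sh-IRF1 (log2 fold change 0.40, adjusted p = 0.00181), and other genes share 10.4% of its exonic bases. Without sh-IRF1 replicate 1 its call was lost (0.34, adjusted p = 0.0547). NPRL2 (chr3:50347330-50350826, minus strand) stood at 433 and 352 in sh-NC and at 276 and 349 in sh-IRF1, with a log2 fold change of -0.33 (adjusted p = 0.0268) with the groups almost touching. This call was lost with total reads scaling (-0.29, adjusted p = 0.0536), with DESeq2 (adjusted p = 0.0957) and without sh-NC replicate 1 (-0.18) or sh-IRF1 replicate 1 (-0.16). NPRL3 did not pass the test, with 1633 and 1708 in sh-NC and 1714 and 1722 in sh-IRF1 (log2 fold change 0.041, 95% interval -0.07 to 0.15), and other genes share 14.1% of its exonic bases.

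Within mTORC1, the genes AKT1S1 and MTOR rose, MLST8 fell and RPTOR did not pass. MLST8 (chr16:2204248-2209453, plus strand), a subunit common to mTORC1 and mTORC2, stood at 4104 and 4041 normalized counts in sh-NC and at 3207 and 3256 in sh-IRF1. Its log2 fold change was -0.33 (SE 0.0406, adjusted p = 2.29e-09), and the groups were far apart for the spread within them. AKT1S1, which codes for the inhibitory subunit PRAS40, stood at 1480 and 1470 in sh-NC and at 1788 and 1732 in sh-IRF1 (log2 fold change 0.25, adjusted p = 0.000188). MTOR, the kinase itself, stood at 2460 and 2342 in sh-NC and at 2666 and 2658 in sh-IRF1 (log2 fold change 0.15, adjusted p = 0.00808). Its call was lost without sh-NC replicate 2 (0.11) and without either sh-IRF1 library (0.15 each). RPTOR, the subunit that recognizes substrates, had 2307 and 2507 in sh-NC and 2479 and 2640 in sh-IRF1, with overlap and a log2 fold change of 0.089 (95% interval -0.01 to 0.19, adjusted p = 0.144). RPTOR passed the test with total reads scaling (0.13, adjusted p = 0.0229) and without sh-NC replicate 2 (0.15, adjusted p = 0.0295).

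RHEB, the GTPase that activates mTORC1, and TSC1 and TSC2, which switch it off, all rose. TSC1 (chr9:132891348-132946874, minus strand) stood at 625 and 590 normalized counts in sh-NC and at 889 and 943 in sh-IRF1, with a log2 fold change of 0.59 (SE 0.08, adjusted p = 2.79e-08). TSC2 (chr16:2047967-2089491, plus strand), whose window with TCACGTGA is shown above, stood at 1592 and 1703 in sh-NC and at 2051 and 2146 in sh-IRF1 (log2 fold change 0.35, adjusted p = 4.65e-07). RHEB stood at 1078 and 1025 in sh-NC and at 1292 and 1252 in sh-IRF1 (log2 fold change 0.27, adjusted p = 0.000516). The reads of 2 pseudogenes named for RHEB came to 14.7% of its own, so that its value is uncertain. The activator and both of its inhibitors therefore had higher normalized counts in sh-IRF1 without overlap between the groups.

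Of 53 further genes of the pathway, 49 were in the table and 48 were tested. Of these 14 rose, 15 fell and 19 did not pass, with a median log2 fold change of 0.1. Over all genes tested, 20.3% rose and 21.9% fell. Beyond 0.5, 4 rose and 6 fell, where 8.27% and 7.56% of all genes tested did so. The same shares apply to the smaller lists that follow, which are too short for their counts to set them apart from all genes. GATOR2, which restrains GATOR1, and KICSTOR, which holds GATOR1 on the lysosome, had 1 gene that rose, 1 that fell and 7 that did not pass among the 9 tested. Among 9 genes of V-ATPase assembly and regulation, 4 rose and 3 fell. CCDC115, an assembly factor of the pump, rose from 556 and 530 to 742 and 806 normalized counts (log2 fold change 0.51, adjusted p = 2.84e-06). NCOA7, which binds the V1 domain, rose from 335 and 311 to 508 and 461 (log2 fold change 0.58, adjusted p = 1.9e-05).

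Of the 5 tested genes for V-ATPase subunits outside the members, all but TCIRG1 had low counts, with at most 138 reads in a library. Some of them share many exonic bases with other genes, and the effect of that on their counts was not tested. ATP6V1G2, the form of the G subunit best known from neurons, had 24 and 25 reads in sh-NC and 7 and 7 in sh-IRF1, with a log2 fold change of -1.75 (SE 0.565, adjusted p = 0.0101). This call was lost without sh-NC replicate 1 (adjusted p = 0.0614) or sh-NC replicate 2 (adjusted p = 0.0676), and a read-through gene shares 13.5% of its exonic bases. ATP6V0A4, ATP6V0D2, ATP6V1B1 and ATP6V1G3 were not analysed here.

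The list of amino acid sensors, which also holds the exporter SLC66A1, moved in both directions, with 3 of 7 tested genes higher and 2 lower. SESN2, a leucine sensor induced by stress, stood at 1870 and 1744 normalized counts in sh-NC and at 1085 and 1146 in sh-IRF1, with a log2 fold change of -0.70 (adjusted p = 1.51e-13). SESN3, of the same family, stood at 126 and 112 in sh-NC and at 237 and 213 in sh-IRF1, with a log2 fold change of 0.91 (adjusted p = 1.28e-05). SLC66A1, a lysosomal exporter of basic amino acids, stood at 1178 and 1159 in sh-NC and at 1837 and 1895 in sh-IRF1 (log2 fold change 0.68, adjusted p = 1.09e-13).

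Among 10 inputs and substrates of mTORC1, 2 rose, 3 fell and 5 did not pass. DDIT4, which codes for the stress-induced inhibitor REDD1, stood at 2962 and 2922 normalized counts in sh-NC and at 1148 and 1120 in sh-IRF1. Its log2 fold change of -1.38 (SE 0.0528, adjusted p = 3.48e-26) left 38.5% of the control level. Of the 4 genes particular to mTORC2, which shares MTOR and MLST8 with mTORC1, 3 fell and 1 rose. PRR5L stood at 157 and 166 in sh-NC and at 78.6 and 77.8 in sh-IRF1 (log2 fold change -1.04, adjusted p = 2.44e-05). PRR5 stood at 318 and 272 in sh-NC and at 244 and 171 in sh-IRF1 (log2 fold change -0.53, adjusted p = 0.0032), and its call was lost without sh-IRF1 replicate 2 (-0.27, adjusted p = 0.228).

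The factors that bind CLEAR type E-boxes did not move together. TFE3 stood at 956 and 912 normalized counts in sh-NC and at 1198 and 1264 in sh-IRF1, with a log2 fold change of 0.40 (adjusted p = 3.34e-06). TFEC, a member found in myeloid cells, stood at 600 and 657 in sh-NC and at 859 and 846 in sh-IRF1 (log2 fold change 0.44, adjusted p = 1.34e-05). TFEB stood at 648 and 612 in sh-NC and at 523 and 512 in sh-IRF1 (log2 fold change -0.28, adjusted p = 0.00938), and its call was lost without sh-NC replicate 1 (-0.24, adjusted p = 0.081) or sh-IRF1 replicate 2 (-0.27, adjusted p = 0.0684). MITF was low, with 53.3 and 54.4 in sh-NC and 29.8 and 31.9 in sh-IRF1 (log2 fold change -0.79, adjusted p = 0.0452). The call of MITF was lost with edgeR (adjusted p = 0.0575), with DESeq2 (adjusted p = 0.118) and without each library in turn, among other alternatives. These are RNA levels, and neither the activity of mTORC1 nor the place of these factors in the cell was measured in these libraries.

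**Figure D5:**
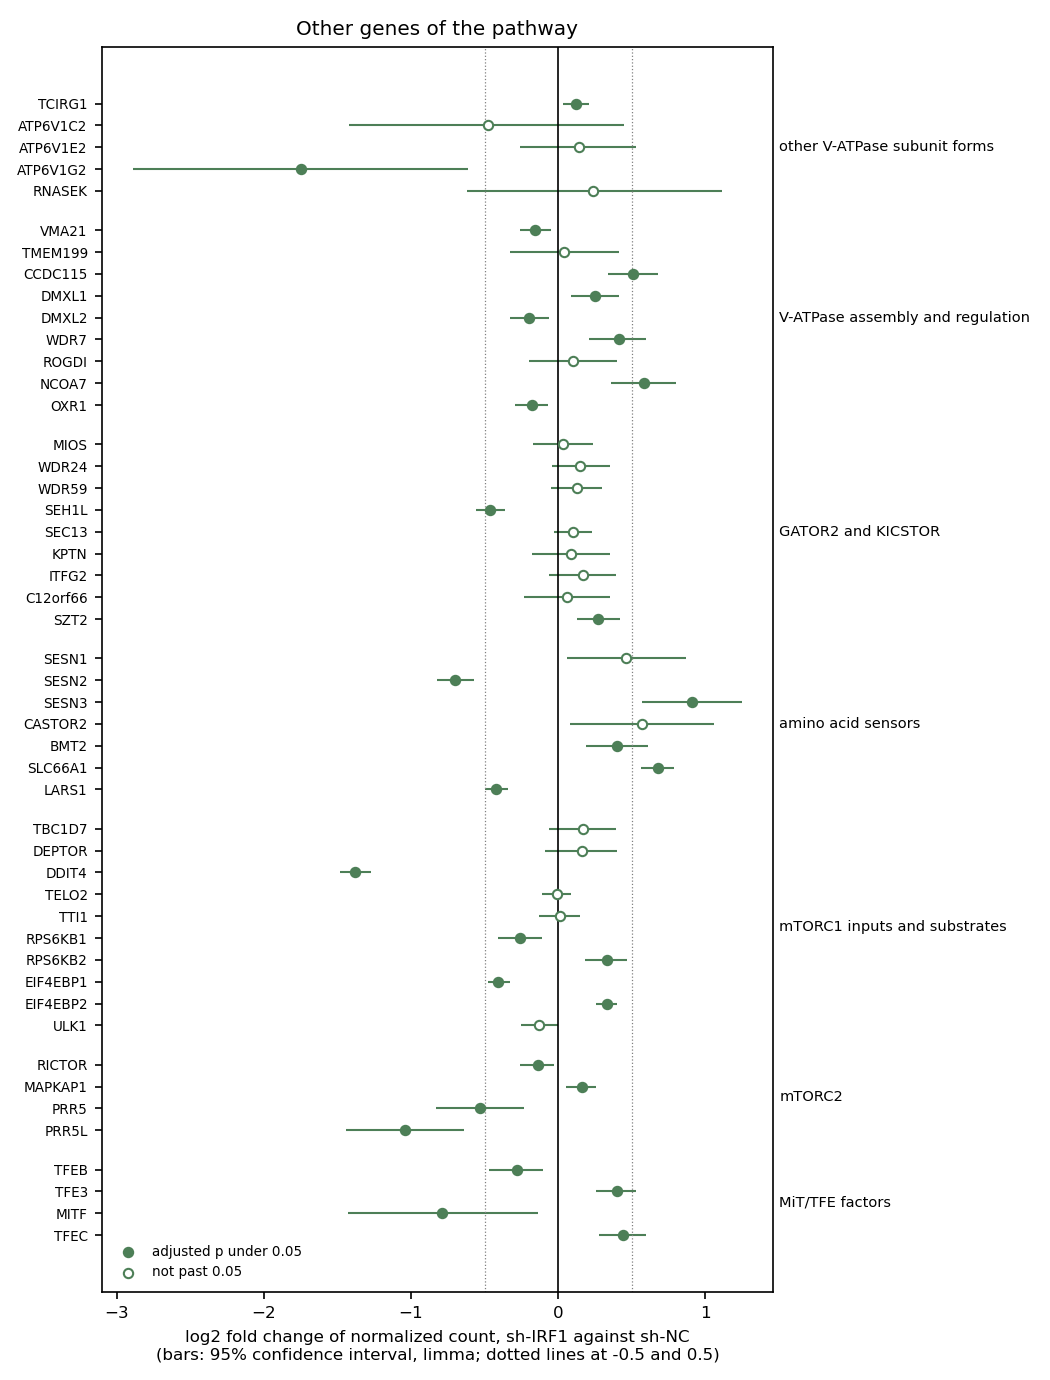
Log2 fold change of normalized count, sh-IRF1 against sh-NC, for the 48 other genes of the pathway that were tested, with 95% confidence intervals from limma; filled points passed an adjusted p of 0.05. The genes lie on both sides of 0, from -1.75 for ATP6V1G2 and -1.38 for DDIT4 to 0.91 for SESN3. ATP6V1G2 passed the filter on low values only through its sh-NC libraries.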

How the data were processed

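RNA sequencing of MV4-11 cells was analysed in 4 libraries, 2 sh-NC and 2 sh-IRF1, grouped by the sample labels. The deposited table holds a normalized signal, in which the authors had scaled each library by 1 size factor, and no whole counts. HISAT2 (2.0.5) and hg38 come from the submitters' processing notes, and the study names FPKM and DESeq2. Which counting tool, annotation and strand setting were used is not given in the sources used here. Every value was a whole multiple of 1 read's worth in its library (100% within 0.01 of a read), so reads were recovered. They summed to 17635908 and 17651512 in sh-NC and 17697836 and 18695337 in sh-IRF1.

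A gene entered the tests if 2 or more libraries reached a value of 10, which kept 14120 of 23622 and left out ATP6V0E2. limma (3.58.1, R 4.3.3, variance trend, robust shrinkage, 43 prior degrees of freedom) was run on log2(value + 1), with Benjamini-Hochberg adjustment over all genes tested. edgeR (4.0.16) and DESeq2 (1.42.0) on the recovered reads, other scalings, filters and pseudocounts, a replicate block and leaving out each library were alternatives. Counting intervals are at 95% and cover counting error only. The member genes and lists were chosen with earlier results of these data known. Named were all members, IRF1, the MiT/TFE factors and the other listed pathway genes with an adjusted p under 0.05 and a log2 fold change beyond 0.5. The choice of LYZ, ITGAM, FLT3, MPO, CD14, TCIRG1, KCP and TRAPPC14 was made with their values known. Symbols were matched for 23456 identifiers, and lengths, positions and shared exons came from GENCODE 44. The limma, edgeR and DESeq2 fits were tested on simulated counts that shared a single dispersion.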

Additional observations from a re-analysis of the deposited data

How the results depend on the processing

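Of the 30 members called, 23 kept their call and direction under all 15 alternatives, and 0 changed sign. Total reads scaling raised the median of all genes tested from -0.0019 to 0.042 and gave, for the genes other than V-ATPase, 7 higher and 0 lower beyond 0.5 and a median of 0.36. Under it ATP6V0A2 (0.042), ATP6V0E1 (0.026) and LAMTOR3 (0.021), none of them called, turned positive, and ATP6V0A2 did so with edgeR (0.0021). When single libraries were left out, the V-ATPase median ran from 0.33 to 0.48, the other median from 0.30 to 0.31, and the number of other genes lower beyond 0.5 from 0 (without sh-NC replicate 2) to 2 (without sh-IRF1 replicate 2). V-ATPase genes higher ran from 10 to 13 over all alternatives and the other genes higher from 12 to 16. Uncalled genes that changed sign when a library was left out ran from -0.068 to 0.063 for ATP6V0A2, from -0.097 to 0.06 for ATP6V0E1, from -0.074 to 0.15 for LAMTOR2 and from -0.091 to 0.044 for LAMTOR3. The cause of these shifts was not tested. A pseudocount of 5 moved the difference in the log2 ratio of ATP6V0E1 to ATP6V0E2 from -2.58 to -1.47. A window of 100 bases before the start left 1 of the 19 other genes with TCACGTGA and 4 with CACGTG. In tested genes with a window the shares were then 1.68% and 7.94%. The gene left with TCACGTGA was RRAGB, which was not analysed here, and the site of TSC2 fell outside.

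Same-numbered libraries did not deviate together (r = -0.0154 across all genes tested). The labels do not say whether they were prepared together, and this correlation cannot decide it. With a replicate block the V-ATPase median was 0.41 with 12 genes higher, the other genes were 15 higher and 3 lower, and no call of a member changed, while MITF lost its call (adjusted p = 0.0523). With 2 libraries per group the spread of a single gene is poorly known.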
